A study of Bos taurus and Ovis aries and Capra hircus with 9 samples.

Results

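Genes shared by the livers of cattle and sheep were compared in 3 adult Holstein cattle and 3 adult Texel sheep, with 1 RNA-seq library per animal, lettered A to C within a species. The animals carried no treatment or engineered allele in the labels, and livers of 3 adult Yunnan black goats were read beside them. A cattle gene and a sheep gene were taken as one shared gene when the lengths of their internal exons, in transcript order, made each the best match of the other and other pairs lay nearby in both genomes. This gave 10399 pairs out of 27607 cattle and 26478 sheep genes in the count tables. Longer gene models collect more reads and no length correction was made in the deposited tables. Pairs whose annotated exon lengths differed by more than 1.5-fold were therefore set aside, which left 6699 pairs. The limit fell between MCTS1, with 1542 nt in cattle and 1028 nt in sheep, and TYRO3, with 4082 and 2721 nt. Of the length-matched pairs, 6043 also had a goat gene. Each species is represented by one breed, so species and breed cannot be told apart. The paper gives an older age range for the cattle than for the sheep and goats. Age therefore cannot be told apart from species between cattle and the others either.

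The liver makes most plasma proteins, including albumin, the clotting factors, and the acute phase proteins, whose output rises after infection or injury. In ruminants it lives on short-chain fatty acids from the rumen: propionate is turned into glucose by gluconeogenesis, ammonia and surplus amino acids are cleared through the urea cycle, and most fatty acid synthesis takes place in adipose tissue rather than in the liver. Hepatocytes also make cholesterol and bile acids, hold iron, and modify foreign compounds with cytochrome P450 enzymes and glutathione transferases.

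The library totals were 47996593, 56363539, and 61105490 counts in cattle and 39305575, 40784417, and 28332266 in sheep. Length-matched pairs took 45.5% to 48.7% of the counts in cattle and 48.6% to 50.2% in sheep, and mitochondrial genes took 9.61% to 10.8% and 1.99% to 2.99%. CPM, the depth-scaled read count, refers below to the TMM-adjusted library total over all tested cattle and sheep pairs. On that scale 3 counts, taken as the lowest level that could be told from none, came to at most 0.103 CPM in a cattle library and 0.138 CPM in a sheep library. These limits cover counting error only, since PCR copies of a molecule are counted separately. In bulk liver, fewer cells of a type and less RNA per cell cannot be told apart.

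Of 5594 length-matched genes that passed the filter on low counts (CPM over 1 in at least 2 of the 6 libraries), 3017 (53.9%) differed between cattle and sheep in the quasi-likelihood test of edgeR at a Benjamini-Hochberg adjusted p under 0.05. Of all genes tested, 21.2% were higher in cattle (1185 genes) and 32.7% were lower (1832 genes). In absolute value the log2 fold change had a median of 0.82. Of the called genes, 2240 differed by more than 2-fold, 797 higher in cattle and 1443 lower. The median log2 fold change, cattle minus sheep, was -0.16, so the scale is not centred on the length-matched genes. When these genes alone set the scaling, the median was -0.01 and 46.9% of the calls were higher in cattle, in place of 39.3%. Of 5691 genes then tested, 1451 were called higher and 1646 lower. With an offset of exon length in the model the median was 0.09 and 50.4% of the calls were higher. Of 5594 genes, 1561 were then called higher and 1536 lower. List counts under these 2 scalings are read against these numbers. The split between higher and lower calls thus depends on the scaling, and the sizes below are best read against the median of -0.16. A number in brackets directly after a gene is its log2 fold change, cattle minus sheep, and adjusted p refers to the same edgeR test. None of the 175 genes whose values were followed through all settings turned its direction after a call.

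The 12 genes with the largest differences towards cattle were taken from called genes with a mean of at least 10 CPM in a species, no overlap of libraries, under 10% of exon length shared with another gene, and more than 3 counts in each library. HP (ARS-UCD1.2 chr18:39037402-39043531, - strand), haptoglobin, the plasma protein that binds free hemoglobin, stood at 33751, 25703, and 44609 CPM in cattle replicates A, B, and C and at 131, 62.1, and 638 CPM in sheep (log2 fold change 6.97, SE 0.97, adjusted p = 0.00064). The lowest cattle library was far above the highest sheep library, although the sheep libraries themselves spread widely. For SDS, serine dehydratase, which turns serine into pyruvate, the cattle libraries held 1425, 2849, and 2861 CPM and the sheep libraries 34.2, 43.9, and 58.8 CPM (log2 fold change 5.70, SE 0.42, adjusted p = 5.2e-05). For SLC13A5, the citrate importer of the hepatocyte surface, the cattle libraries held 318, 369.8, and 478 CPM and the sheep libraries 6.97, 5.88, and 21.5 CPM (log2 fold change 5.09, SE 0.55, adjusted p = 0.000221). All 3 cattle libraries of each of these genes lay above all 3 sheep libraries. SLC16A6, a monocarboxylate transporter, stood at 43.8, 50.3, and 96.2 CPM in cattle replicates A, B, and C and at 1, 1.45, and 1.75 CPM in sheep (log2 fold change 5.51, SE 0.41, adjusted p = 5.57e-05). For CDH17, liver-intestine cadherin, the cattle libraries held 91.1, 110.1, and 121 CPM and the sheep libraries 2.04, 0.833, and 2.99 CPM (log2 fold change 5.78, SE 0.44, adjusted p = 5.78e-05). For GPNMB, a transmembrane glycoprotein known from macrophages, the cattle libraries held 158, 202, and 215 CPM and the sheep libraries 7.07, 2.81, and 3.27 CPM (log2 fold change 5.44, SE 0.40, adjusted p = 5.43e-05). The ranges did not overlap in these genes either, nor in the other 6, of which NCS1, a neuronal calcium sensor, had the largest log2 fold change (8.04). NCS1 held 75.7, 115, and 52.8 CPM in cattle and 0.173, 0.439, and 0.322 CPM in sheep. The others were an unnamed gene, ENSBTAG00000039337 (7.53), the potassium channel KCNH3 (30.5, 28.4, and 8.27 CPM in cattle and 0.243, 0.351, and 0.46 CPM in sheep), the cell cycle protein CDCA2 (5.66), the receptor tyrosine phosphatase PTPRZ1 (5.04), and the organic anion transporter SLCO4A1 (5.01), with adjusted p between 2.33e-05 and 0.000282. Without sheep C the log2 fold change of HP was 8.48, that of SLC13A5 5.91, and that of ENSBTAG00000039337 8.34, and without sheep A that of PTPRZ1 was 5.66. With the length offset the fold of NCS1 was over 1.5 times larger.

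The 12 genes with the largest differences towards sheep were chosen in the same way. GSTA5, an alpha-class glutathione transferase, stood at 1.41, 0.524, and 0.183 CPM in cattle replicates A, B, and C and at 648, 203, and 508 CPM in sheep (log2 fold change -9.37, SE 0.84, adjusted p = 0.000102). This family has near-identical copies, between which the counting could split reads, so the size of this difference is uncertain. For ACADSB (ARS-UCD1.2 chr26:42805983-42855916, + strand), the dehydrogenase of short branched-chain acyl-CoA in isoleucine breakdown, the cattle libraries held 4.73, 5.71, and 3.26 CPM and the sheep libraries 492, 502, and 525 CPM (log2 fold change -6.79, SE 0.31, adjusted p = 1.06e-05). MAPK13, the delta form of the p38 kinases, stood at 0.583, 0.524, and 0.652 CPM in cattle replicates A, B, and C and at 47, 46.2, and 47.7 CPM in sheep (log2 fold change -6.31, SE 0.23, adjusted p = 7.77e-06). Both genes were nearly constant among the 3 sheep, and their highest cattle library stayed far below the lowest sheep library. NRAP, an actin-anchoring protein best known from muscle, stood at 0.48, 0.602, and 0.365 CPM in cattle replicates A, B, and C and at 46.3, 114, and 56.3 CPM in sheep (log2 fold change -7.21, SE 0.47, adjusted p = 3.29e-05). For TECTA, alpha-tectorin, a matrix protein known from the inner ear, the cattle libraries held 0.24, 0.236, and 0.104 CPM and the sheep libraries 34.6, 22.3, and 33.2 CPM (log2 fold change -7.27, SE 0.40, adjusted p = 1.89e-05). GUCY2C, the guanylate cyclase receptor for guanylin, stood at 0.789, 0.995, and 0.652 CPM in cattle replicates A, B, and C and at 16.5, 105, and 67.6 CPM in sheep (log2 fold change -6.27, SE 0.71, adjusted p = 0.000252). The sheep libraries of GUCY2C spread over a wide range without reaching the cattle libraries. The other 6 were IGSF9 (-7.82), SH2D4A (-6.29), EFCAB7 (-6.18), the allantoicase gene ALLC (-6.15), the matrix protein gene ABI3BP (-5.98), and MAMLD1 (-5.89), with adjusted p between 7.77e-06 and 0.000766. MAMLD1 held 0.72, 0.498, and 0.6 CPM in cattle and 80.6, 16.7, and 10.4 CPM in sheep, and its log2 fold change was -4.49 without sheep A. Without cattle A that of GSTA5 was -10.31, and without cattle C that of ABI3BP was -6.74.

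**Figure D1:**
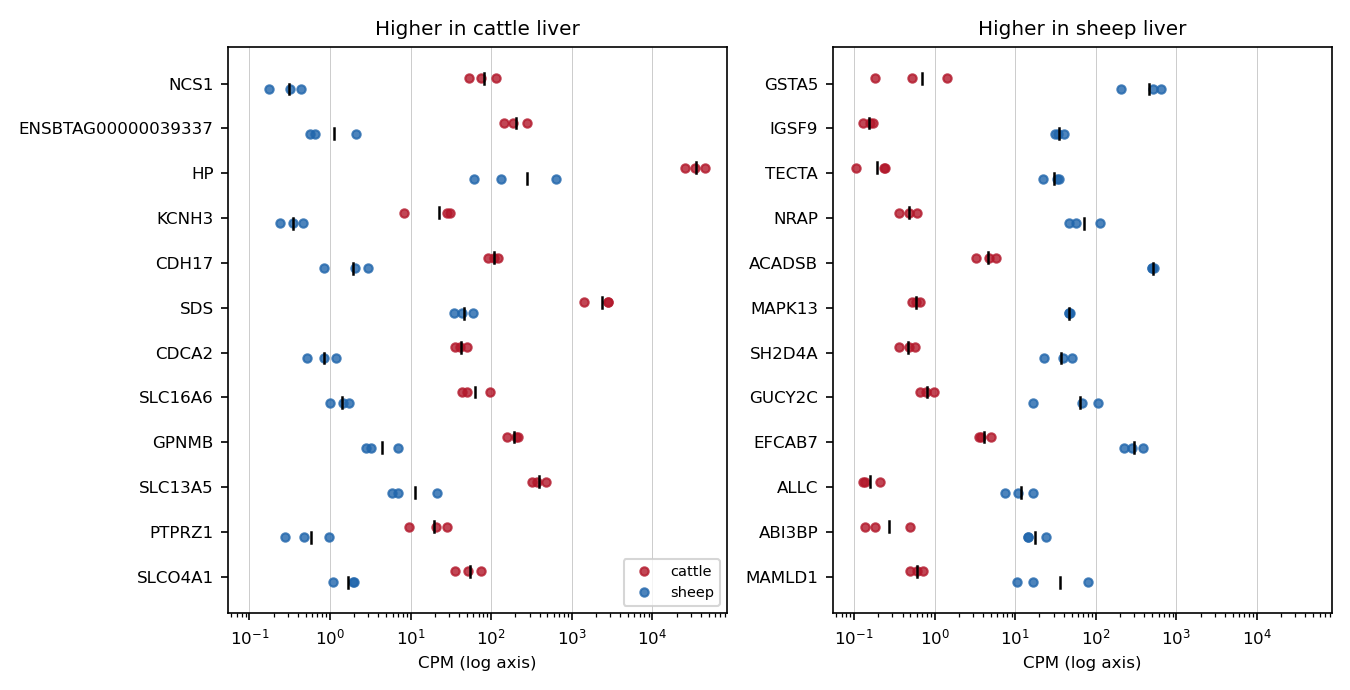
CPM of the 24 genes with the largest differences between cattle and sheep liver, on a log axis; each point is 1 library (3 per species) and each short black line the species mean. The genes were chosen to have no overlap of libraries between the species. HP in cattle, at 25703 to 44609 CPM, is the most abundant.

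Some genes were read in one species and almost not in the other. Each species was counted on its own genome and gene models. Missing counts therefore cannot be told apart from a difference between these, and the folds below cover counting alone. ECEL1, an endopeptidase-like membrane protein, held 133, 231, and 437 CPM in cattle and 0 counts in all 3 sheep libraries, which puts its cattle mean at least 1933-fold higher than the level of 3 counts in the smallest sheep library. TREH, the trehalose-splitting enzyme, held 175, 116, and 105 CPM in cattle and 0 in sheep (at least 956-fold higher), and SLC5A8, a sodium-coupled monocarboxylate transporter, 30.6, 40.1, and 221 CPM and 0 (at least 704-fold higher). Cattle replicate C alone carried most of the SLC5A8 level. The growth factor gene NRG2 had 29.8, 26.4, and 18.8 CPM in cattle, a mean of 25 ± 5.63 (SD, n = 3), against 5 counts in sheep. This is a ratio of 361 with a 95% exact binomial counting interval of 155 to 1113.

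In the other direction BCO1, the oxygenase that splits beta-carotene into retinal, stood at 117, 148, and 149.6 CPM in the 3 sheep libraries and had 3 counts in cattle, all in replicate B. The ratio was 4799 (counting interval 1642 to 23276), and the gene lies at ARS-UCD1.2 chr18:7897717-7928436, + strand. LRP3, a receptor of the low-density lipoprotein receptor family, held 135, 229.7, and 110.4 CPM in sheep against 7 counts in cattle (ratio 2372, interval 1151 to 5901). The fibrillin gene FBN3 held 68.1 and 89 CPM in sheep A and B, and slightly more in sheep C, against 2 counts (ratio 4493, interval 1243 to 37109). All 7 of these genes were chosen from those that passed the test between cattle and sheep without overlap of libraries.

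Secreted plasma proteins made up all 5 of the most abundant length-matched genes in cattle and 4 of 5 in sheep, the other being the cytochrome CYP2E1. Per kilobase of annotated exon, FGB, the fibrinogen beta chain, stood at 36603 ± 9985 in cattle and 5955 ± 467 in sheep (CPM per kb, mean ± SD, n = 3), FGG, the fibrinogen gamma chain, at 30296 ± 7782 in cattle and 5716 ± 489 in sheep, and ALB, albumin, at 24918 ± 1926 in cattle and 74962 ± 18152 in sheep. HP and ORM1, an alpha-1-acid glycoprotein, completed the first 5 of cattle. The first 5 of sheep were ALB, VTN, CYP2E1, AHSG, and FGB. In library values, ALB held 57121, 50408, and 49828 CPM in cattle and 136634, 196666, and 128393 CPM in sheep (log2 fold change -1.55, SE 0.29, adjusted p = 0.00257). Fibrinogen went the other way: FGB held 87744, 78171, and 128595 CPM in cattle and 14886, 17123, and 15115 CPM in sheep (log2 fold change 2.64, SE 0.31, adjusted p = 0.000288). FGG had a log2 fold change of 2.55 (adjusted p = 0.000298). FGB shares 13.3% of its cattle exon length with another annotated gene. Among the listed plasma proteins, 18 of 33 listed genes were length-matched and tested, with 5 higher in cattle, 4 lower, and 9 not called (median log2 fold change 0.24; 3 higher and 4 lower with the replicate block). Read against 21.2% and 32.7% of all genes called in the 2 directions, this list was mixed. The lists and cell markers that follow are read against the same shares. AHSG, fetuin-A, was lower in cattle at 1813, 1508, and 1127 CPM against 9049, 13607, and 6701 CPM in sheep (log2 fold change -2.72, SE 0.36, adjusted p = 0.000493). Transferrin, TF, the most abundant member per kilobase that did not pass, held 14994, 15586, and 8405 CPM in cattle and 13518, 16817, and 11251 CPM in sheep (log2 fold change -0.09, SE 0.32, adjusted p = 0.82), so its ranges overlapped.

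For the acute phase proteins, 6 of 17 listed genes were length-matched and tested, with 4 higher in cattle, 2 lower, and 0 not called (median log2 fold change 3.48). Every tested member was thus called, beside 53.9% of all tested genes. HP, described above, had the largest difference of the list. LBP, the lipopolysaccharide-binding protein, stood at 4822, 4544, and 7204 CPM in cattle replicates A, B, and C and at 209, 235, and 205 CPM in sheep (log2 fold change 4.68, SE 0.31, adjusted p = 3.36e-05). ORM1, named above among the abundant genes, stood at 13279, 3785, and 3862 CPM in cattle replicates A, B, and C and at 43.2, 79.4, and 752 CPM in sheep (log2 fold change 4.58, SE 1.17, adjusted p = 0.0104). For ITIH4, an inter-alpha-trypsin inhibitor heavy chain, the cattle libraries held 12906, 12764, and 23657 CPM and the sheep libraries 2437, 4243, and 2858 CPM (log2 fold change 2.37, SE 0.37, adjusted p = 0.00111). Cattle libraries lay above all sheep libraries in each of these genes, and ORM1 varied several-fold among the animals of both species. Its log2 fold change was 3.71 without cattle A and 6.82 without sheep C. The 2 members lower in cattle were ITIH3 (-1.74, adjusted p = 0.00166), another heavy chain, and LCN2 (-1.04, adjusted p = 0.0218), lipocalin-2, which binds bacterial siderophores. Summed over the tested members, the acute phase list stood at 47728 to 80779 CPM in cattle and 5673 to 9249 CPM in sheep.

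Genes of fatty acid and triglyceride synthesis were mostly lower in cattle, beside 32.7% of all tested genes lower and 21.2% higher. In this list 12 of 25 listed genes were length-matched and tested, with 2 higher in cattle, 9 lower, and 1 not called (median log2 fold change -1.17). FASN, fatty acid synthase, the enzyme that builds palmitate, stood at 34, 26.4, and 17.6 CPM in cattle replicates A, B, and C and at 2228, 1562, and 495 CPM in sheep (log2 fold change -5.78, SE 0.62, adjusted p = 0.000207). For ACACA, acetyl-CoA carboxylase, which makes its substrate malonyl-CoA, the cattle libraries held 30.9, 36.5, and 26.5 CPM and the sheep libraries 767, 579, and 216 CPM (log2 fold change -4.06, SE 0.47, adjusted p = 0.000281). For ACSS2, the cytosolic enzyme that activates acetate, the cattle libraries held 27.7, 23, and 4.28 CPM and the sheep libraries 316, 469.9, and 185 CPM (log2 fold change -4.15, SE 0.69, adjusted p = 0.00147). In the 3 genes the lowest sheep library was above the highest cattle library, and sheep replicate C was the lowest of the sheep each time. ATP citrate lyase ACLY (-1.76, adjusted p = 0.00173), the acyltransferase genes GPAM (-1.33, adjusted p = 0.0308) and DGAT1 (-1.06, adjusted p = 0.00287), and the regulators SREBF1 (-1.28, adjusted p = 0.00891) and MLXIPL (-0.88, adjusted p = 0.00618) were lower in cattle by smaller amounts. PLIN2, the protein that coats lipid droplets and one of the 2 members higher in cattle, stood at 257, 263, and 124 CPM in cattle replicates A, B, and C and at 13.1, 13.6, and 9.75 CPM in sheep (log2 fold change 4.14, SE 0.35, adjusted p = 7.93e-05). LPIN1, a phosphatidate phosphatase, was the other (1.80, adjusted p = 0.0141). With the length offset the log2 fold change of PLIN2 was 4.85, and the fold of ACACA was over 1.5 times smaller. The lipase PNPLA2 did not pass (log2 fold change 0.19, SE 0.23, adjusted p = 0.503).

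Cholesterol synthesis had no member higher in cattle, beside 21.2% of all tested genes higher and 32.7% lower. In this list 8 of 24 listed genes were length-matched and tested, with 0 higher in cattle, 5 lower, and 3 not called (median log2 fold change -1.56; 0 higher and 8 lower with DESeq2). ACAT2, which joins acetyl-CoA units, held 106, 91.6, and 34.2 CPM in cattle and 726, 1136, and 676 CPM in sheep (log2 fold change -3.45, SE 0.46, adjusted p = 0.000524). MVD, mevalonate diphosphate decarboxylase, held 48.4, 35.4, and 24.3 CPM and 275, 490.3, and 163 CPM (log2 fold change -3.10, SE 0.45, adjusted p = 0.00073), and IDI1 and FDFT1, further along the pathway, had log2 fold changes of -2.03 (-1.28 with the length offset) and -1.84. The cattle and sheep libraries did not overlap in these 4 genes. CYP51A1 did not pass (log2 fold change -1.10, SE 0.46, adjusted p = 0.0729), but was called with DESeq2 and with the replicate block. In fatty acid oxidation and ketone body synthesis, most members did not pass. Here 11 of 26 listed genes were length-matched and tested, with 0 higher in cattle, 3 lower, and 8 not called (median log2 fold change -0.11). The 3 were the peroxisomal enzyme HSD17B4 (-1.89, adjusted p = 0.00277), the dienoyl-CoA reductase DECR1 (-1.79, adjusted p = 0.000651), and ECHS1 (-0.95, adjusted p = 0.0191), a call lost without cattle B and with all 9 libraries in the fit, adjusted p up to 0.107. The median of this list was negative in the main fit and positive, at 0.07 and 0.05, with the length offset and with length-matched genes alone. Among apolipoproteins and lipoprotein genes, 9 of 23 listed genes were length-matched and tested, with 2 higher in cattle, 4 lower, and 3 not called (median log2 fold change -0.21; 3 higher and 2 lower with the length offset and 1 higher and 4 lower with the replicate block). This median turned to 0.67 with the length offset. LCAT, which esterifies plasma cholesterol, was lower in cattle (-1.22, adjusted p = 0.0104), a call lost with the length offset. The cholesterol exporter ABCA1 was higher in cattle (2.05, adjusted p = 0.0174; 2.75 without sheep A), but the call was lost without cattle C or sheep C, adjusted p up to 0.058.

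Glucose handling held a pair of opposite differences. Its counts stand beside 21.2% of all tested genes higher in cattle and 32.7% lower. Of the list for gluconeogenesis, glycogen, and propionate use, 13 of 31 listed genes were length-matched and tested, with 1 higher in cattle, 5 lower, and 7 not called (median log2 fold change -0.51; 1 higher and 3 lower with length-matched genes alone and 1 higher and 3 lower with the replicate block). PCK1, the cytosolic phosphoenolpyruvate carboxykinase, which commits carbon to glucose, stood at 1052, 672, and 693 CPM in cattle replicates A, B, and C and at 4429, 4318, and 3791 CPM in sheep (log2 fold change -2.37, SE 0.28, adjusted p = 0.000294). PCK2, its mitochondrial form, was also lower in cattle (-1.46, adjusted p = 0.00698), as was PFKFB1, whose product regulates glycolysis (-1.53, adjusted p = 0.00696). For LDHA, the lactate dehydrogenase subunit typical of muscle, the cattle libraries held 266, 460.2, and 191 CPM and the sheep libraries 15, 18.3, and 10.2 CPM (log2 fold change 4.40, SE 0.41, adjusted p = 0.000115). LDHA was the single member higher in cattle. The tested genes of propionate entry did not pass: PCCA (-0.53), MMAA (-0.21), and MMAB (-0.31), with adjusted p of 0.109, 0.395, and 0.366. Ketohexokinase, KHK, did not pass either (-0.51, adjusted p = 0.122).

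For the urea cycle and amino acid breakdown, 25 of 41 listed genes were length-matched and tested, with 5 higher in cattle, 12 lower, and 8 not called (median log2 fold change -0.60). These counts stand beside 21.2% of all tested genes higher in cattle and 32.7% lower. In the urea cycle itself, carbamoyl phosphate synthetase CPS1 (0.90, adjusted p = 0.0285) and the ornithine transporter SLC25A15 (1.14, adjusted p = 0.04) were higher in cattle. NAGS (-1.28, adjusted p = 0.00188), which makes the activator of CPS1, was lower, and argininosuccinate synthase ASS1 (0.34, adjusted p = 0.346) did not pass. OTC, ornithine transcarbamylase of the same cycle, stood at 207, 255, and 134 CPM in cattle replicates A, B, and C and at 657, 866, and 787 CPM in sheep (log2 fold change -1.95, SE 0.29, adjusted p = 0.000808). The 2 serine dehydratase genes went in opposite directions: beside SDS, SDSL held 2.09, 2.46, and 2.48 CPM in cattle and 45.6, 59, and 40.4 CPM in sheep (log2 fold change -4.36, SE 0.24, adjusted p = 1.91e-05). SDS (chr17:61030240-61040569, + strand) and SDSL (chr17:61005835-61018993, - strand) lie on the same cattle chromosome. For CTH, cystathionine gamma-lyase, which releases cysteine, the cattle libraries held 379, 356, and 169 CPM and the sheep libraries 51.4, 62.7, and 60 CPM (log2 fold change 2.38, SE 0.32, adjusted p = 0.000561). AASS, the first enzyme of lysine breakdown, was higher in cattle (2.26), whereas kynureninase KYNU (-2.61, adjusted p = 0.000344), glutaminase GLS2 (-2.12, adjusted p = 0.000398), and proline dehydrogenase PRODH (-1.74, adjusted p = 0.0173) were lower. HPD, a tyrosine-breakdown enzyme and the most abundant member per kilobase that did not pass, had a log2 fold change of -0.76 (adjusted p = 0.0978).

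In drug and steroid metabolism, 15 of 38 listed genes were length-matched and tested, with 1 higher in cattle, 7 lower, and 7 not called (median log2 fold change -0.97). Beside this, 21.2% of all tested genes were higher in cattle and 32.7% lower. CYP2E1, the cytochrome P450 of ethanol and ketone oxidation, stood at 2433, 1099, and 206 CPM in cattle replicates A, B, and C and at 13449, 24174, and 12695 CPM in sheep (log2 fold change -3.75, SE 0.81, adjusted p = 0.00496). For POR, the reductase that feeds electrons to microsomal P450 enzymes, the cattle libraries held 179.7, 139, and 99.4 CPM and the sheep libraries 719.7, 1085, and 639.7 CPM (log2 fold change -2.55, SE 0.32, adjusted p = 0.000411). Cattle replicate C was the lowest of the cattle in both genes, and no cattle library reached a sheep library. Without cattle A the log2 fold change of CYP2E1 was -4.67. The nuclear receptor NR1I3 (-1.97, adjusted p = 0.00824), the alcohol dehydrogenase ADH5 (-2.41, adjusted p = 0.000175) (with the length offset, -1.65), the epoxide hydrolase EPHX2 (-1.93, adjusted p = 0.000953), and the exporter ABCC3 (-2.43, adjusted p = 0.00063) were also lower in cattle, and CYP1A2 was the single member higher (1.40, adjusted p = 0.0181). ALDH2 did not pass (-0.20, adjusted p = 0.557). For bile acid synthesis and transport, 10 of 25 listed genes were length-matched and tested, with 1 higher in cattle, 3 lower, and 6 not called (median log2 fold change -0.71). For AMACR, the racemase of branched-chain fatty acids and bile acid intermediates, the cattle libraries held 112, 126, and 65.1 CPM and the sheep libraries 615, 771, and 573 CPM (log2 fold change -2.69, SE 0.30, adjusted p = 0.000252). SLC51A, a subunit of the basolateral bile acid exporter, held 42.8, 84.8, and 20.8 CPM in cattle and 0.208, 0.219, and 0.184 CPM in sheep (log2 fold change 7.89, SE 0.65, adjusted p = 7.85e-05), with 10.2% of its cattle exon length shared with another gene. Its log2 fold change was 7.26 without cattle B. ABCG8, a sterol exporter, was lower in cattle (-2.83, adjusted p = 0.00308; -3.54 without cattle A). CYP27A1, of the acidic route, did not pass (-0.53, adjusted p = 0.164). HSD3B7, counted among the lower members, had 0 counts in all cattle libraries and 215, 255, and 198 CPM in sheep, but 100% of its cattle exon length lies under another annotated gene, so no direction is read from it.

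Smaller groups are read against the shares of all tested genes called, 21.2% higher and 32.7% lower. In the growth hormone and insulin axis, 8 of 23 listed genes were length-matched and tested, with 0 higher in cattle, 4 lower, and 4 not called (median log2 fold change -0.56; 0 higher and 1 lower with the length offset and 1 higher and 2 lower with length-matched genes alone). IGFBP3, the main carrier of insulin-like growth factors in plasma, stood at 274, 203, and 182 CPM in cattle replicates A, B, and C and at 1129, 1361, and 1516 CPM in sheep (log2 fold change -2.60, SE 0.26, adjusted p = 0.000158). The other 3 calls, for AKT2, GCGR, and IGF2R (-0.64, -0.81, and -0.65), depended on the setting. The call of AKT2 was lost without cattle A or B and with the length offset or all 9 libraries in the fit, adjusted p up to 0.164, that of GCGR was lost without cattle B or C or sheep B and with the length offset or length-matched genes alone, adjusted p up to 0.0864, and that of IGF2R was lost without cattle A, B, or C or sheep A or C and with the length offset, length-matched genes alone, the replicate block, or all 9 libraries in the fit, adjusted p up to 0.214. The insulin receptor INSR did not pass (0.67, adjusted p = 0.14). For iron, heme, and copper, 12 of 28 listed genes were length-matched and tested, with 1 higher in cattle, 7 lower, and 4 not called (median log2 fold change -0.94). For TMPRSS6, the protease that restrains hepcidin, the cattle libraries held 129.7, 95.8, and 66.3 CPM and the sheep libraries 536, 551, and 507 CPM (log2 fold change -2.45, SE 0.28, adjusted p = 0.000268). The heme synthesis genes ALAS1 (-1.71, adjusted p = 0.00463), ALAD (-2.02, adjusted p = 0.00516), and PPOX (-0.78, adjusted p = 0.00908) were all lower in cattle, as was the transferrin receptor TFR2 (-1.38, adjusted p = 0.00114). IREB2, an iron-responsive RNA-binding protein, held 54.7, 77.1, and 71.5 CPM in cattle and 26.1, 6.71, and 20.6 CPM in sheep (log2 fold change 1.93, SE 0.44, adjusted p = 0.00677), and the iron exporter SLC40A1 did not pass (-0.15, adjusted p = 0.68). Among liver transcription factors, 6 of 28 listed genes were length-matched and tested, with 0 higher in cattle, 2 lower, and 4 not called (median log2 fold change -0.30; 0 higher and 1 lower with the length offset). GATA6 (-1.92; -0.99 with the length offset) and the estrogen receptor ESR1 (-1.48, not called with the length offset) were lower. Of the clock genes, 7 of 20 listed genes were length-matched and tested, with 0 higher in cattle, 2 lower, and 5 not called (median log2 fold change -0.58; 0 higher and 1 lower with the length offset and 0 higher and 1 lower with length-matched genes alone). The repressor CRY2 held 21.3, 13, and 14.5 CPM in cattle and 106, 78.6, and 62.4 CPM in sheep (log2 fold change -2.34, SE 0.28, adjusted p = 0.000348). The call of PER1 (-0.85) was lost without cattle A or B or sheep C and with the length offset, length-matched genes alone, or all 9 libraries in the fit, adjusted p up to 0.108, and ARNTL did not pass (-0.58, adjusted p = 0.0792).

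Interferon response and antigen presentation was divided. In this list 11 of 29 listed genes were length-matched and tested, with 3 higher in cattle, 4 lower, and 4 not called (median log2 fold change -0.26). STAT2, the interferon signal transducer, stood at 259.8, 338, and 406 CPM in cattle replicates A, B, and C and at 84.2, 48.1, and 84.1 CPM in sheep (log2 fold change 2.21, SE 0.29, adjusted p = 0.00051). IRF7 was also higher in cattle (1.18, adjusted p = 0.0253), and MX2 (1.64) was called, a call lost without cattle B or sheep B or C and with the replicate block or all 9 libraries in the fit, adjusted p up to 0.148. Another interferon regulatory factor, IRF3, was lower in cattle (-0.86, adjusted p = 0.00827), and MX1 did not pass (-0.71, adjusted p = 0.109). The antigen-processing genes PSMB8 (-2.08, adjusted p = 0.00214) and TAP1 (-1.36, adjusted p = 0.00298) and the class II regulator CIITA (-1.23, adjusted p = 0.00926) were lower in cattle, and the loading factor TAPBP did not pass (-0.12, adjusted p = 0.637). With the length offset the log2 fold change of PSMB8 was -1.21. TAP1 shares 24.6% of its sheep exon length with another gene. For the proteasome, 23 of 31 listed genes were length-matched and tested, with 7 higher in cattle, 1 lower, and 15 not called (median log2 fold change 0.22; 4 higher and 1 lower with the replicate block). For PSMC2, an ATPase of the proteasome base, the cattle libraries held 220.2, 203, and 231 CPM and the sheep libraries 73.1, 87.1, and 66.7 CPM (log2 fold change 1.53, SE 0.19, adjusted p = 0.000374). PSMD12 (1.24), PSMA1 (1.07), and 4 further subunits were higher, PSMB6 was lower (-1.23, adjusted p = 0.00677), and PSMB1 did not pass (-0.39). For nuclear subunits of the respiratory chain, 16 of 36 listed genes were length-matched and tested, with 1 higher in cattle, 7 lower, and 8 not called (median log2 fold change -0.54; 2 higher and 5 lower with length-matched genes alone). SDHB, of complex II, held 228, 195, and 152 CPM in cattle and 361, 579, and 381 CPM in sheep (log2 fold change -1.20, SE 0.27, adjusted p = 0.00596), a call lost with the length offset. NDUFS1, of complex I, was higher in cattle (0.78, adjusted p = 0.00484), and the ATP synthase subunit ATP5F1B did not pass (-0.61, adjusted p = 0.0565). Of the stress genes, 4 of 26 listed genes were length-matched and tested, with 2 higher in cattle, 0 lower, and 2 not called (median log2 fold change 0.71). The chaperone HSPA5 (1.45, adjusted p = 0.0019) and HIF1A (1.55, adjusted p = 0.00166) were higher, and HSPA8 did not pass (-0.09). Of the peroxisome biogenesis genes, 4 of 18 listed genes were length-matched and tested, with 1 higher in cattle, 1 lower, and 2 not called (median log2 fold change -0.05). PEX16 was higher (0.82; lost without cattle A or sheep A or C, adjusted p up to 0.065), and PEX3, with 21.6% of its cattle exon length shared, did not pass (-0.03). The median turned to 0.13 with the length offset. Over all pathway lists, each gene once, 118 of 218 tested genes were called (54.1%, beside 53.9% of all genes), 36 higher and 82 lower in cattle, with a median log2 fold change of -0.47 beside -0.16.

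**Figure D2:**
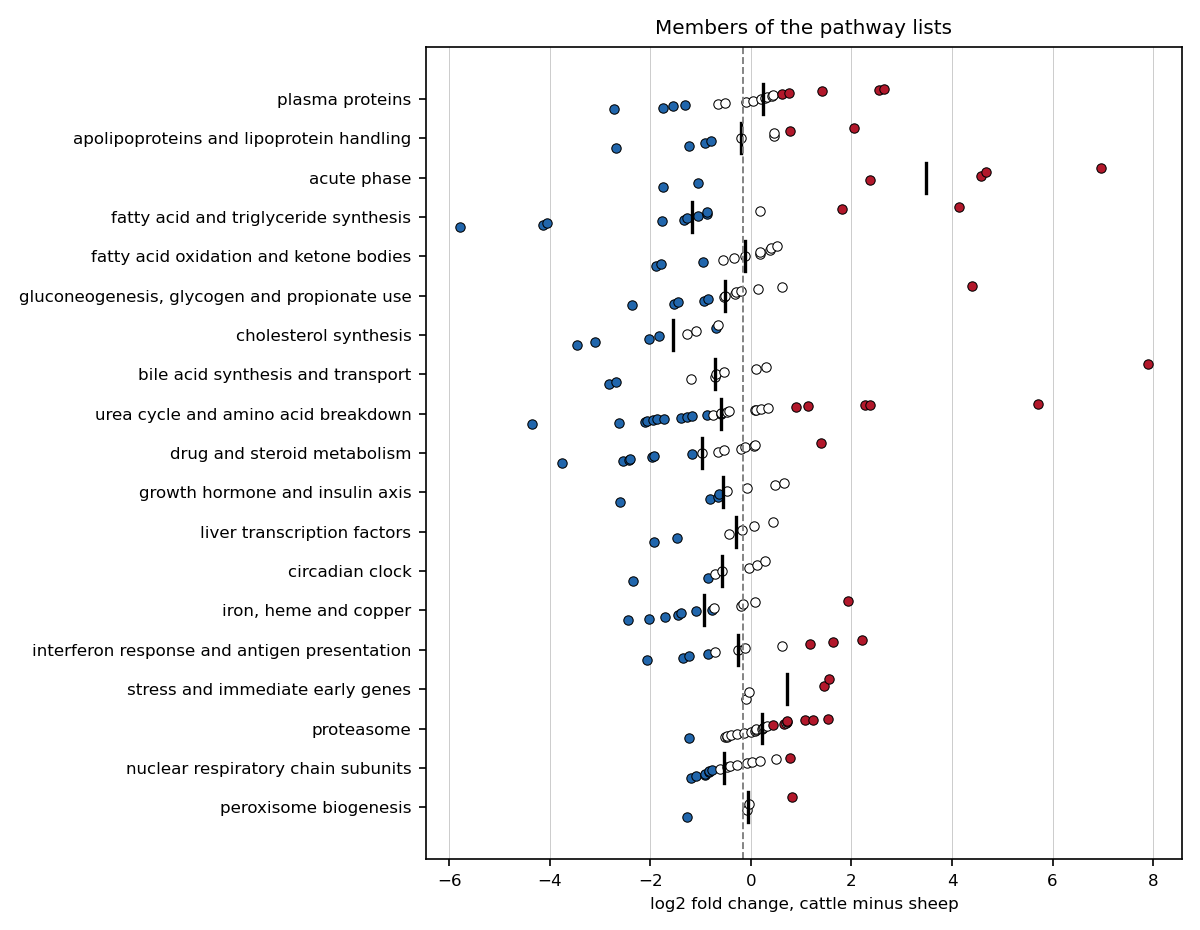
Log2 fold change, cattle minus sheep, of each tested length-matched member of the pathway lists. Filled points passed the test (red higher in cattle, blue lower), open points did not, black lines are list medians, and the dashed line is the median of all length-matched genes (-0.16); HSD3B7 is left out of the points. Acute phase members reach 6.97, and those of fatty acid synthesis -5.78.

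Marker genes of liver cell types gave a check on the tissue. Their calls stand beside 21.2% of all tested genes higher in cattle and 32.7% lower. The 3 tested hepatocyte markers of 10 listed, ALB, CPS1, and CYP2E1, were abundant in all 6 libraries and summed to 58648 to 66045 CPM in cattle and 145513 to 223987 CPM in sheep. Markers of Kupffer cells and macrophages (3 of 13 tested, CD163, CD68, and CSF1R) summed to 613 to 818 CPM in cattle and 589 to 915 CPM in sheep, and none passed the test. The endothelial list (10 of 12) summed to 831 to 886 CPM in cattle and 964 to 1308 CPM in sheep, with 3 members higher and 4 lower in cattle. The vascular growth factor receptors FLT1 (3.08, adjusted p = 0.000166) and KDR (1.18, adjusted p = 0.000718) and the angiopoietin receptor TEK (1.12, adjusted p = 0.00179) were higher. STAB1 (-1.58), ENG (-1.27), TIE1 (-1.11), and VWF (-0.74) were lower. Stellate cell and fibroblast markers (8 of 14) summed to 401 to 598 CPM in cattle and 529 to 559 CPM in sheep, with COL6A3 (adjusted p = 0.000691) higher and 2 type I collagen chains, COL1A1 (-1.19) and COL1A2 (-1.05), lower. Bile duct markers (3 of 9) summed to 17.1 to 24.7 CPM in cattle and 21.1 to 64 CPM in sheep, with KRT7 lower in cattle (-2.77, adjusted p = 0.00607). T and NK cell markers (3 of 13) summed to 24.9 to 27.6 CPM in cattle and 18.1 to 36.9 CPM in sheep, with CD2 (-2.10) and CD3G (-1.70) lower. No tested marker was at 0 in a whole species. Of the B and plasma cell list no member was length-matched, and the 3 length-matched red blood cell genes of 9 were below the filter. The part of cell composition in the differences above was not tested.

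Neighbouring genes were called in the same direction in a higher share of couples than genes far apart. Of 5538 couples of adjacent tested genes that were also close in sheep, 1022 (18.5%) were both called in the same direction and 626 (11.3%) in opposite directions. Couples 50 genes apart gave 631 of 4028 (15.7%) and 545 (13.5%). Among couples with both genes called, the same direction was therefore seen in 62.0% of neighbours and 53.7% of distant couples. The number of neighbouring couples called in the same direction, 1022, fell to 665 without cattle replicate B, and with genes free of exon overlap alone it was 857. Couples share genes with each other, so these counts are a description.

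Windows of 10 consecutive genes held a median of 2 genes higher and 3 lower in cattle. Consecutive here and below refers to tested, length-matched genes alone. Genes that were unpaired, over the Length limit, or below the filter can lie between them. Windows were ranked by their number of calls in one direction, so these counts choose the windows and are given with no test. A single window of 5320 had 8 higher, whereas 55 overlapping windows had 8 or more lower. Among all tested genes, 21.2% were called higher in cattle and 32.7% lower. That split depends on the scaling, and the windows were counted on the main scaling. The first window towards cattle, ARS-UCD1.2 chr6:68538960-71871800, had 8 genes higher in cattle, 0 lower, and 2 not called (median log2 fold change 0.93) and lies on one sheep chromosome. It held KIT, the stem cell factor receptor, at 16.3, 14.2, and 15.3 CPM in cattle and 4.33, 1.75, and 4.14 CPM in sheep (log2 fold change 2.16, SE 0.36, adjusted p = 0.00154), and KDR, an endothelial growth factor receptor, at 155, 169, and 181 CPM and 75.1, 77, and 71.2 CPM (log2 fold change 1.18, SE 0.17, adjusted p = 0.000718). KIT and KDR libraries did not overlap between species. PPAT, of purine synthesis (1.77), SCFD2 (1.03), and SRP72, of the signal recognition particle (0.83), were higher too. The calls of TMEM165, EXOC1, and CEP135 (0.69, 0.59, and 1.19) did not hold: that of TMEM165 was lost without cattle A, B, or C or sheep A, B, or C and with the replicate block or all 9 libraries in the fit, adjusted p up to 0.167, that of EXOC1 lost without cattle B or C or sheep A and with the replicate block or all 9 libraries in the fit, adjusted p up to 0.0755, and that of CEP135 lost without cattle A, B, or C or sheep A or B and with all 9 libraries in the fit, adjusted p up to 0.0941. The other 5 calls held under all alternatives run. FIP1L1 (-0.36) and AASDH (0.54) were not called.

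The next window, ARS-UCD1.2 chr16:73524525-76747186, had 7 genes higher in cattle, 3 lower, and 0 not called (median log2 fold change 2.02) and the largest median towards cattle. It carries complement regulators. CD46 held 260.2, 254, and 278 CPM in cattle and 33.9, 11.5, and 23.2 CPM in sheep (log2 fold change 3.53, SE 0.38, adjusted p = 0.000214), and CFHR5, a factor H-related protein, 1538, 1400.0, and 1844 CPM and 253, 202, and 305 CPM (log2 fold change 2.65, SE 0.26, adjusted p = 0.000143). LAMB3, a laminin chain, held 350.3, 469, and 385 CPM and 58.3, 47.3, and 36.8 CPM (log2 fold change 3.08, SE 0.26, adjusted p = 7.85e-05). The cattle libraries of the 3 genes were all several-fold above the sheep libraries. Factor H-related genes belong to a family with near-identical copies, which the counting could split. CRB1, a cell polarity protein, held 5.25, 10.9, and 11.7 CPM in cattle and 0 counts in sheep. DENND1B (2.18), ASPM (1.86; lost without sheep A, B, or C and with the replicate block, adjusted p up to 0.0703), and ZBTB41 (1.62; lost without cattle A, B, or C or sheep A or C and with CPM over 1 in every library, genes free of exon overlap, or all 9 libraries in the fit, adjusted p up to 0.139) were higher too. HSD11B1, which regenerates active glucocorticoid, went the other way (log2 fold change -1.09 with the length offset), with 585, 642, and 406 CPM in cattle and 1872, 2542, and 1656 CPM in sheep (log2 fold change -1.89, SE 0.29, adjusted p = 0.000948). PLXNA2 (-1.20, lost with the length offset) and TRAF3IP3 (-0.87; lost without cattle B or C, adjusted p up to 0.0706) were lower too. In the third window, ARS-UCD1.2 chr4:86301179-92873142, 7 genes higher in cattle, 0 lower, and 3 not called (median log2 fold change 1.21) were found. PTPRZ1 (5.04), FLNC, a filamin (2.36), AASS (2.26), KCP (1.49; 2.18 with the length offset), ZNF800 (1.44), WASL (0.97; lost without cattle A, B, or C or sheep A and with the length offset, adjusted p up to 0.11), and SND1 (0.72; lost without cattle B or C or sheep A or C and with the replicate block or all 9 libraries in the fit, adjusted p up to 0.124) were higher, and CADPS2, POT1, and RBM28 were not called.

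Windows towards sheep were shorter. The first spans 509870 nt at ARS-UCD1.2 chr5:119312407-119822276 and had 1 gene higher in cattle, 9 lower, and 0 not called (median log2 fold change -1.53). SELENOO, a selenoprotein, held 42, 35.7, and 32.5 CPM in cattle and 163, 265, and 149 CPM in sheep (log2 fold change -2.39, SE 0.27, adjusted p = 0.000246), and HDAC10, a polyamine deacetylase, 8.4, 6.31, and 6.05 CPM and 43.5, 70.5, and 39.8 CPM (log2 fold change -2.89, SE 0.29, adjusted p = 0.000156), with 16.1% of its cattle exon length shared. The libraries of both genes were far apart. PPP6R2 (-1.65), LMF2, a lipase maturation factor (-1.64), PLXNB2, a semaphorin receptor (-1.42), TUBGCP6 (-1.18), NCAPH2 (-1.04), SBF1 (-0.61; lost without cattle A or B or sheep A and with the length offset, length-matched genes alone, or the replicate block, adjusted p up to 0.103), and MIOX, inositol oxygenase (-2.15; lost without cattle C, adjusted p up to 0.0524), were lower too. These 9 genes, from SELENOO to NCAPH2, were the longest run of calls in one direction in the order of tested, length-matched genes. CRELD2, just before them in that order, was higher in cattle (1.55, adjusted p = 0.000551).

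The window at ARS-UCD1.2 chr25:35220789-36345320 had 0 genes higher in cattle, 9 lower, and 1 not called (median log2 fold change -1.32). TFR2, the second transferrin receptor, held 178, 141, and 124 CPM in cattle and 375, 429, and 353 CPM in sheep (log2 fold change -1.38, SE 0.22, adjusted p = 0.00114), and PCOLCE, which enhances procollagen cleavage, 49.9, 36.5, and 31.7 CPM and 149, 248, and 143 CPM (log2 fold change -2.19, SE 0.29, adjusted p = 0.000505). Neither gene had overlapping libraries. COL26A1 (-2.80), SLC12A9 (-2.16), TRAPPC14 (-1.26), FBXO24 (-1.18, lost with the length offset), SRRT (-0.95), TAF6 (-2.20), and STAG3 (-1.16; lost without cattle A, B, or C and with DESeq2, no filter, the length offset, length-matched genes alone, the replicate block, or all 9 libraries in the fit, adjusted p up to 0.171) completed the calls, and EPHB4 was not called. Other annotated genes shared 45.5% of the cattle exon length of TAF6 and 13.2% of that of SRRT. The window at ARS-UCD1.2 chr3:100455525-101355267 had 0 genes higher in cattle, 8 lower, and 2 not called (median log2 fold change -1.92). AKR1A1, an aldehyde reductase, held 87.3, 53.6, and 50.4 CPM in cattle and 279, 477, and 262 CPM in sheep (log2 fold change -2.41, SE 0.33, adjusted p = 0.00062), and HECTD3, a ubiquitin ligase, 20.2, 21.4, and 21.5 CPM and 74, 97.7, and 92.9 CPM (log2 fold change -2.07, SE 0.19, adjusted p = 0.000103). The libraries of the 2 genes did not overlap. ARMH1 (-5.61, with 23.2% of its cattle exon length shared), CCDC163 (-3.99; -4.60 without cattle C), CCDC17 (-3.48), the DNA repair gene MUTYH (-1.46, with 14.8% shared), and EIF2B3 (-0.88; lost without cattle B or C and with the length offset, adjusted p up to 0.0964) were lower as well, and NASP and PLK3 were not called. The next longest run was 8 genes on chromosome 25 from RHBDF1 (121338 to 592182), all lower in cattle. Runs of 5 or more numbered 29 lower and 6 higher, beside 32.7% of all tested genes called lower and 21.2% higher.

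**Figure D3:**
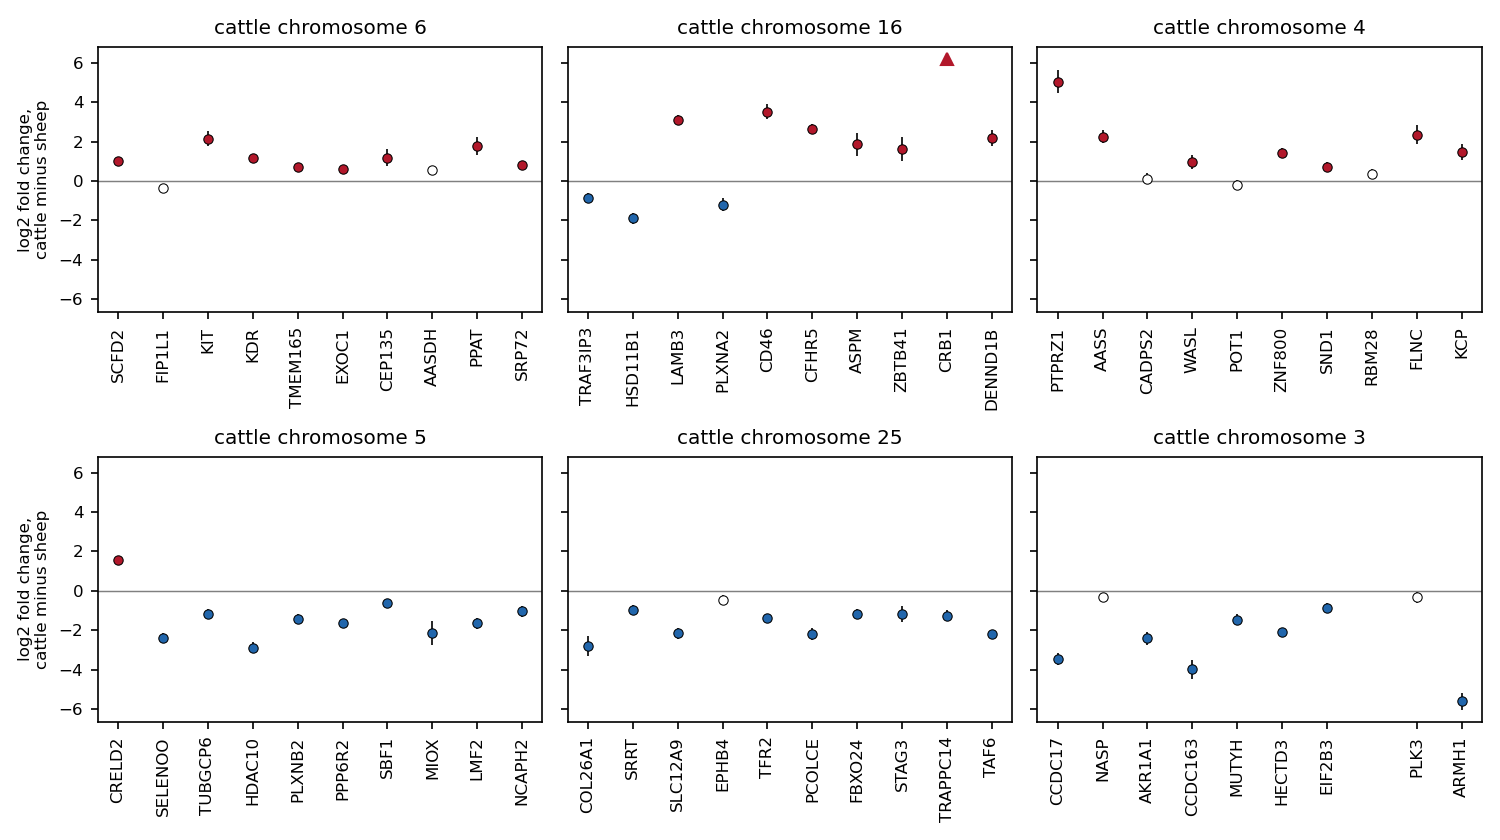
Log2 fold change, cattle minus sheep, with SE, of the genes in each of the 6 windows, in the order of the cattle chromosome. Only tested, length-matched genes are counted as consecutive, and 1 gene on chromosome 3 is not drawn. Filled points passed the test (red higher in cattle, blue lower), open points did not, and the triangle marks CRB1, at 0 counts in sheep, whose fold is not drawn; 9 of 10 genes are lower in the windows on chromosomes 5 and 25.

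The windows differed in how densely genes are annotated around them: a median of 8 to 13 cattle genes started within 500 kb on either side of a gene in the windows towards cattle, against 26.5 to 55.5 in those towards sheep. Chromosomes with more annotated genes per Mb also had a lower share of calls higher in cattle. The share of calls that were higher in cattle ran from 22.8% on chromosome 18 (36 of 158 calls), 23.5% on chromosome 29, and 27.9% on chromosome 25 to 56.1% on chromosome 20 and 56.8% on chromosome 1 (75 of 132 calls). The share of genes called varied less, from 45.1% on chromosome 20 to 62.3% on chromosome 25. Chromosomes 18 and 25 held 21.5 and 19.7 annotated genes per Mb, and chromosomes 1 and 20 held 7.14 and 6.54. Over the 30 chromosomes, which share the same 6 libraries, Pearson's r between the 2 quantities was -0.65 and Spearman's rho -0.59, given as a description.

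When the 5594 genes were divided into 4 classes of like size by the number of annotated cattle genes within 500 kb on either side, the share of calls higher in cattle was 50.4% in the sparsest class (median 7 genes in 1 Mb), 51.1% and 37.9% in the middle classes, and 20.1% in the densest (median 45 genes). The share of genes called rose from 50.4% to 58%, and the median log2 fold change went from 0.11 to -0.58. The order of the sparsest and densest classes was the same with the length offset (62.8% and 28.2%) and with length-matched genes alone in the fit (57.5% and 26.5%). The length ratio of the 2 annotations had a median of 1.18 and 1.17 in these classes, and the median cattle exon length fell from 3171 to 2483 nt. In the comparison with goats the share higher in cattle was 57.7% in the sparsest and 28.6% in the densest class, and the share higher in sheep than in goats 62.4% and 65.6%. The first shares its cattle libraries with the comparison above and the second its sheep libraries. Base composition, which goes with gene density in mammals, was not analysed here.

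**Figure D4:**
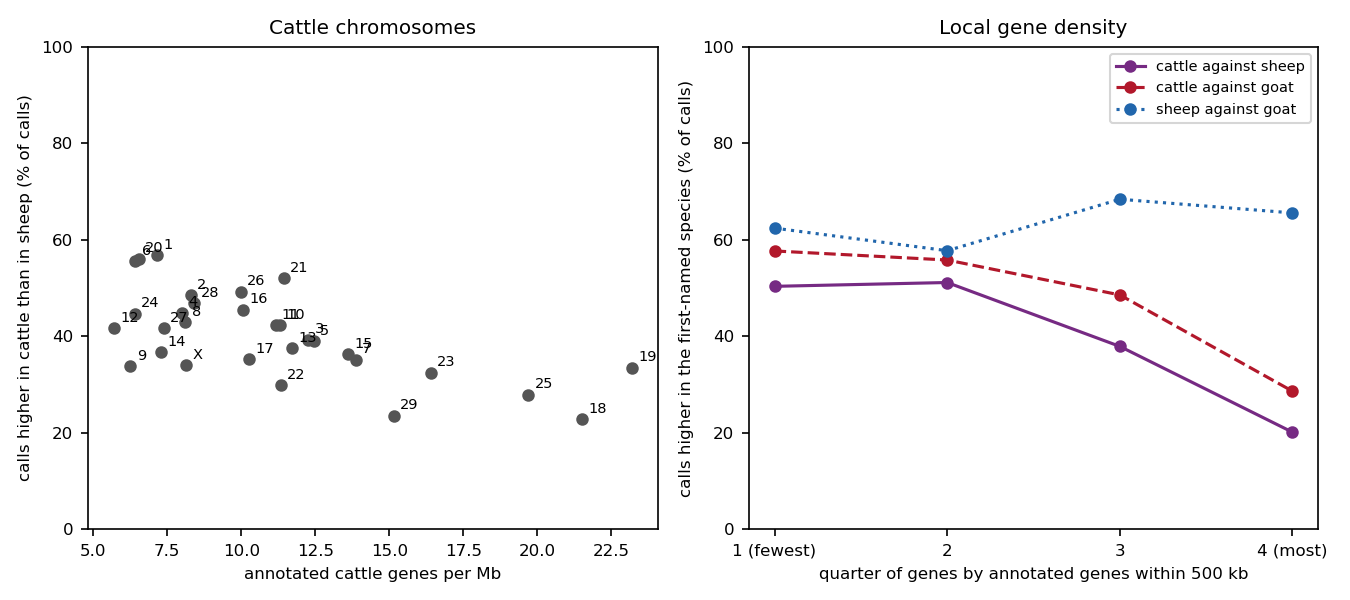
Left, the share of calls higher in cattle than in sheep (%) on each of 30 cattle chromosomes against annotated cattle genes per Mb. Right, the share of calls higher in the first-named species (%) by class of local gene density for the 3 comparisons; cattle against sheep falls from 50.4% to 20.1%.

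Goat liver was read beside the 2 species in a fit of all 9 libraries over genes found in each, and its values are given for genes within 1.5-fold in Length in the 3 species. Of 3480 such genes tested, 1694 (48.7%) separated cattle from goats and 682 (19.6%) sheep from goats. The second number rests on single libraries: it was 430 without goat replicate B and 444 without sheep replicate C. Goat libraries held 35647106, 22921767, and 16507706 counts. Both comparisons share libraries with cattle against sheep, so their values are set side by side and nothing is read from their likeness. For 699 genes higher in cattle than in sheep, the median log2 fold change was 1.22 for cattle minus goat and -0.11 for sheep minus goat, with 492 and 125 genes called. For 1081 genes lower in cattle the medians were -1.19 and 0.36, with 707 and 302 called. For 1588 genes not called between cattle and sheep they were 0.07 and 0.08, with 421 and 213 called. Each of these sets was chosen on libraries that the goat comparisons reuse.

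Goats stood in different places for the groups described above. List counts here stand beside 763 genes higher and 931 lower in cattle than in goats, of 3480 tested. For sheep against goats, 411 of the 3480 were higher in sheep and 271 lower. HP had 39069.5, 29344, and 52391 in cattle, 152, 70.1, and 746 in sheep, and 12552, 4366, and 669.8 in goats (CPM over 9 libraries; cattle minus goat 2.78, adjusted p = 0.0366, and sheep minus goat -4.18, adjusted p = 0.0149), so the goat libraries spread between the other species and goat replicate C lay within the sheep range. LBP held 1081, 391, and 124 CPM in goats, a spread that took in the sheep libraries (cattle minus goat 3.59, adjusted p = 0.00106, and sheep minus goat -1.10, adjusted p = 0.211). ITIH4 held 5321, 5283, and 2072 CPM (cattle minus goat 2.18, adjusted p = 0.00367, and sheep minus goat -0.21, adjusted p = 0.784). Of the 4 acute phase genes matched in length in 3 species, 3 were higher in cattle than in goats and 1 was lower in sheep than in goats. FASN held 39.3, 30.2, and 20.6 in cattle, 2576, 1764, and 579 in sheep, and 60.1, 73.5, and 55.7 in goats (cattle minus goat -1.07, adjusted p = 0.0774, and sheep minus goat 4.70, adjusted p = 0.000175). ACACA held 36.1, 27, and 29.6 CPM in goats (cattle minus goat 0.23, adjusted p = 0.644, and sheep minus goat 4.27, adjusted p = 8.65e-05). ACSS2 held 80.4, 43.5, and 24.4 CPM (cattle minus goat -1.23, adjusted p = 0.111, and sheep minus goat 2.91, adjusted p = 0.00698). In these genes all goat libraries lay below all sheep libraries; they overlapped the cattle libraries in ACACA and ACSS2 and lay just above them in FASN. Of 7 matched list members, 4 were higher in sheep than in goats and none was lower, while 1 was higher and none lower in cattle than in goats. For cholesterol synthesis, MVD held 176, 107, and 50.8 CPM and FDFT1 234, 212, and 107 CPM in goats (cattle minus goat -1.42, adjusted p = 0.0283, and sheep minus goat 1.67, adjusted p = 0.0267 for MVD, and cattle minus goat -0.17, adjusted p = 0.77, and sheep minus goat 1.66, adjusted p = 0.0194 for FDFT1). Of 4 matched members, 3 were lower in cattle than in goats and 2 were higher in sheep than in goats.

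Among the genes with the largest differences towards cattle, SLC13A5 held 4.33, 0.26, and 0.756 CPM in goats (cattle minus goat 7.90, adjusted p = 6.71e-05, and sheep minus goat 2.81, adjusted p = 0.019). KCNH3 held 0.162, 0.26, and 0.227 CPM (cattle minus goat 6.90, adjusted p = 1.4e-05, and sheep minus goat 0.90, adjusted p = 0.371). SLC16A6 held 2.38, 1.3, and 2.57 CPM (cattle minus goat 5.13, adjusted p = 9.28e-06, and sheep minus goat -0.39, adjusted p = 0.522). SLCO4A1 held 3.68, 2.17, and 5.67 CPM (cattle minus goat 4.01, adjusted p = 3.88e-05, and sheep minus goat -0.99, adjusted p = 0.101). All goat libraries of these genes were below all cattle libraries. TREH was at 0 counts in the 3 goat libraries as in the sheep libraries. ECEL1 held 0.324, 0.0867, and 0.378 CPM and NRG2 0.973, 0.26, and 0.454 CPM in goats. Towards sheep, NRAP held 229.6, 278, and 189 CPM in goats, above the sheep libraries (cattle minus goat -8.69, adjusted p = 8.12e-07, and sheep minus goat -1.49, adjusted p = 0.00753). MAPK13 held 52, 87.5, and 67.1 CPM (cattle minus goat -6.65, adjusted p = 4.63e-07, and sheep minus goat -0.35, adjusted p = 0.322). SH2D4A held 26.2, 39.5, and 34 CPM (cattle minus goat -5.91, adjusted p = 2.62e-06, and sheep minus goat 0.37, adjusted p = 0.411). TECTA held 12.8, 27.6, and 10.8 CPM (cattle minus goat -6.23, adjusted p = 8.71e-06, and sheep minus goat 1.03, adjusted p = 0.0746). GUCY2C held 16.3, 30.4, and 9.23 CPM (cattle minus goat -4.30, adjusted p = 0.000339, and sheep minus goat 1.96, adjusted p = 0.0275). In these genes the goat libraries were all far above the cattle libraries. MAMLD1 differed from that, with 1.57, 0.607, and 2.12 CPM in goats (cattle minus goat -1.05, adjusted p = 0.259, and sheep minus goat 4.84, adjusted p = 0.00117). BCO1 held 58.5, 101, and 29.2 CPM in goats and FBN3 59.6, 175, and 1.66 CPM, where goat replicate C was far below the other two. Sheep minus goat was 1.34 for BCO1 (adjusted p = 0.0429). NCS1, CDH17, SDS, CDCA2, GPNMB, PTPRZ1, SLC5A8, GSTA5, IGSF9, ACADSB, EFCAB7, and LRP3 had goat gene models over 1.5-fold apart in Length from another species, and ENSBTAG00000039337 and ABI3BP had no goat pair tested, so no goat value is given for them.

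For the other groups, CYP2E1 held 17728, 14031, and 4715 CPM in goats (cattle minus goat -3.08, adjusted p = 0.00742, and sheep minus goat 0.66, adjusted p = 0.553). AHSG held 12947, 11575, and 4569 CPM (cattle minus goat -2.50, adjusted p = 0.00158, and sheep minus goat 0.21, adjusted p = 0.781). FGG held 17574, 17728, and 8340.2 CPM (cattle minus goat 2.22, adjusted p = 0.00219, and sheep minus goat -0.34, adjusted p = 0.617). STAT2 held 107, 61, and 92.6 CPM (cattle minus goat 2.16, adjusted p = 0.00038, and sheep minus goat -0.06, adjusted p = 0.914). In these 4 genes sheep and goats did not pass the test between them. ARNTL, at 14.2, 12.7, and 16 CPM in goats, was below both cattle and sheep (cattle minus goat 1.52, adjusted p = 0.000936, and sheep minus goat 2.10, adjusted p = 0.000397). Window counts stand beside 763 genes higher and 931 lower in cattle than in goats, of 3480 tested. For sheep against goats, 411 were higher and 271 lower. The windows were chosen on cattle and sheep libraries that these comparisons reuse. Matched genes lower in cattle than in goats numbered 5 of 5, 6 of 7, and 3 of 7 in the windows towards sheep. These windows lie on chromosomes 5, 25, and 3, in that order. Of their genes 0, 1, and 0 were higher in sheep than in goats and 0, 1, and 0 lower. In the windows higher in cattle, 2 of 5, 3 of 5, and 2 of 6 matched genes were higher in cattle than in goats. These windows lie on chromosomes 6, 16, and 4, and 0, 1, and 1 of their genes were lower in cattle. Another 0, 1, and 1 were lower in sheep than in goats, with none higher.

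**Figure D5:**
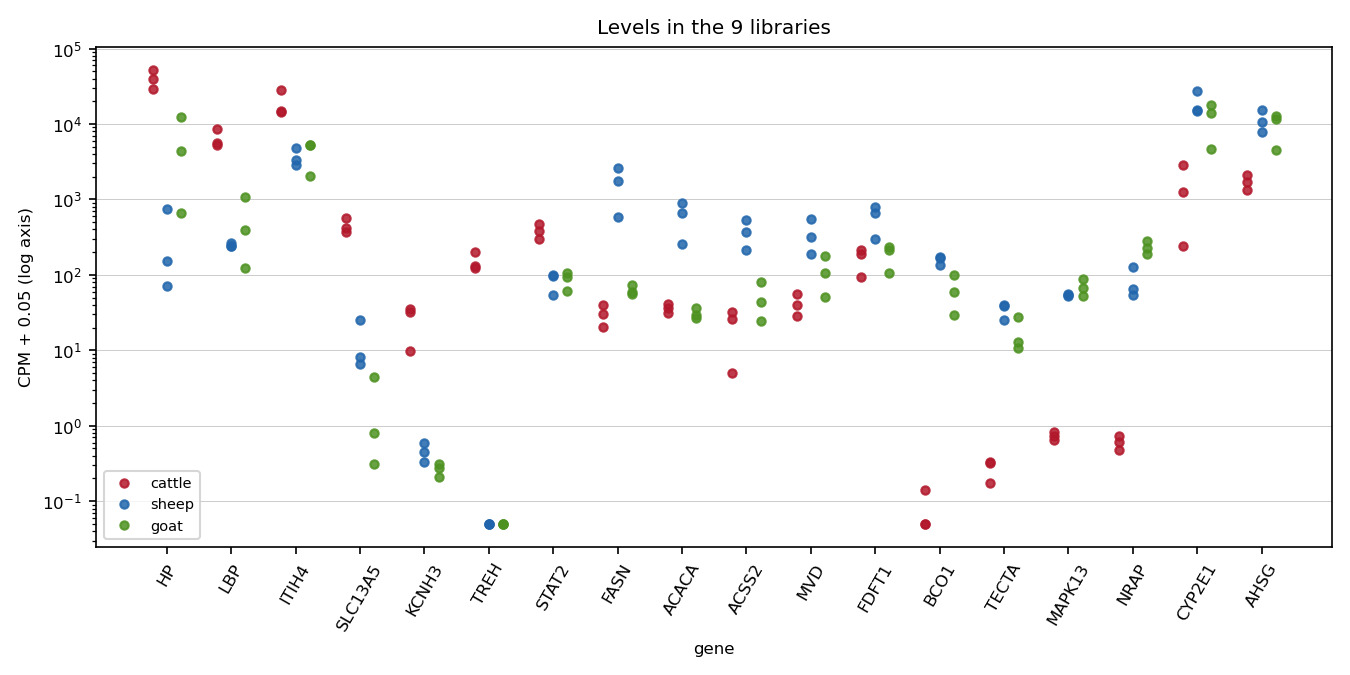
CPM + 0.05 (log axis) of 18 genes named above and matched in length in 3 species, in the 3 libraries each of cattle, sheep, and goats, from the scaling over 9 libraries; points at the bottom are at 0 counts. Goat libraries lie with the cattle libraries for ACACA (36.1, 27, and 29.6 CPM) and far above them for MAPK13 (52, 87.5, and 67.1 CPM).

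Among the pairs set aside for their lengths, 1930 of 3162 tested genes (61.0%) were called between cattle and sheep. They are not used in any result above.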

How the data were processed

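Liver mRNA of 3 cattle, 3 sheep, and 3 goats was sequenced. The authors trimmed reads with Trimmomatic 0.39, mapped them with STAR 2.7.6 to the Ensembl 103 genomes, allowing 3 mismatches, and deposited featureCounts read counts per gene and library, without normalization. The featureCounts version and its strand and read-pair options are not given in the sources used here. The deposited Length, another column of the same tables, is the summed exon length.

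Samples were grouped by their labels. Shared genes needed 2 internal exons and 50% of the shorter list matched, and 2 other pairs within 10 places. The tables hold no symbols: 6469 of the 6699 length-matched pairs were named by position from the RefSeq gene table of ARS-UCD2.0, after checking that 12376 gene bounds equal those of ARS-UCD1.2 to the base, against at most 784 at any other shift up to 50 bases. Names are therefore inferred.

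Counts were normalized by TMM over all cattle and sheep pairs and tested by robust quasi-likelihood with edgeR 4.0.16 (R 4.3.3; 6 libraries, or 9 with goats), adjusted by Benjamini-Hochberg over all genes tested. The p-values set the difference between species against the spread among the animals within a species. The cattle and sheep fit was tested on simulated counts, and the pairing on cattle gene models against a damaged copy of themselves. The other steps were not simulated. Named genes followed a rule: called, with a mean of 10 CPM, no library overlap, under 10% of exons shared, and more than 3 counts in every library, the 12 largest in each direction, then 4 near zero, up to 4 per list with the most abundant uncalled member, the windows, and the 5 most abundant. Some genes that the rule named are not reported here. The members and lists were chosen with earlier results of these data known. The alternatives were DESeq2 1.42.0, RLE factors, other filters, a length offset, tighter Length and exon limits, all 9 libraries, a replicate block, and fits without 1 replicate at a time.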

Additional observations from a re-analysis of the deposited data

Results flagged for a closer look

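Pairs whose annotated exon lengths differed by more than 1.5-fold were kept out of the comparisons, and a signal in such unused data is given here for a closer look. Of 3162 tested pairs of this kind, 61.0% were called between cattle and sheep, beside 53.9% of the length-matched genes. Where the cattle model was the longer one, 63.4% of 1822 calls were higher in cattle (median log2 fold change 0.37 over 2986 genes). Where the sheep model was longer, 20.4% of 108 calls were higher in cattle (median -0.78 over 176 genes). The difference between these sets was not tested.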

How the results depend on the processing

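The 3017 calls between cattle and sheep became 976 when genes over 1.1-fold apart in Length were left out, since 1838 genes then remained to be tested, and ranged from 2377 to 3189 without single replicates. With the same limit on Length, the neighbouring couples called in the same direction numbered 322, the listed genes called 37, the calls against goats 267 for cattle and 108 for sheep. Without single replicates, the couples ranged from 665 to 1073, the listed genes called from 92 to 119, the calls of cattle against goats from 1296 to 1787, and those of sheep against goats from 430 to 812. All other alternatives run left these 5 counts within 1.5 times their main values. For sheep against goats, the share of calls higher in sheep was 60.3%, and 39.4% with the length offset.

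Of 175 named genes, 28 lost their call in at least 1 refit and 8 gained one (111 and 13 of 2936 refits), and none turned its direction. The 32 genes with the largest differences or near zero in one species kept their calls in 514 refits. They were chosen for calls and large differences in these same data, so this says little about other genes. The cause of the lost calls was not tested.

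Letters A to C are shared by the species. Same-letter libraries correlated at -0.18, -0.20, and 0.17 between cattle and sheep, at -0.02, -0.13, and 0.02 between cattle and goats, and at 0.29, 0.28, and 0.02 between sheep and goats, where A and B each matched their own letter best; since not every pair was over 0.1, they were not taken as pairs. With the replicate block there were 2711 calls for cattle against sheep, 1644 for cattle and 650 for sheep against goats, 830 couples (chromosome neighbourhoods), and 107 listed genes called. The filters that kept genes without exon overlap (2593 calls) or those counted in each library (2954 calls) were added after seeing the data. Depth limits the goat comparisons most: 3 counts came to 0.182 CPM of the total of goat replicate C.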
